A study of Mus musculus with 2 samples.

Results

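Very long coding genes carried GLORI sites deep inside their introns that do not match the m6A consensus. The sites described here are adenosines listed in either of 2 mouse brain libraries that met all of the following conditions. The base on the site strand of the GRCm38 genome was A, and the 5-mer around it was not DRACH, where D stands for any base but C, R for a purine and H for any base but G. The A was not followed by T and then C, no GENCODE M21 exon of the same strand covered it, and it lay inside the interval of a coding gene longer than 500 kb on that strand. Of the 219409 sites of the series, 17516 met these conditions, and they made up 5.21% of the cerebellum library (4134 of 79355) and 7.14% of the cerebrum library (13454 of 188295). They are called members below. GENCODE M21 holds 230 coding genes over 500 kb, of which 201 carried a member. No methylation rate or read count enters the choice beyond the authors' own limits for listing a site.

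m6A is written onto nascent RNA by the METTL3 and METTL14 methyltransferase complex, which favours the DRACH consensus, and it is best known from exons, above all from 3′ UTRs and long internal exons. Introns are part of the transcript only until they are spliced out, so a site there is read from unspliced RNA or from an exon that the annotation does not list. Coding genes with the longest introns are concentrated among the adhesion molecules, receptors and channels of neurons. In GLORI, glyoxal and nitrite deaminate adenosines that carry no methyl group, which sequencing then shows as G, and a methylated adenosine keeps its identity. An adenosine that escapes deamination for another reason is also read as A.

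Both libraries were made from poly(A)+ RNA of a female F1r mouse on postnatal day 0, where F1r is the offspring of a C57 mother and a PWK father. The labels do not say whether the cerebellum and the cerebrum came from the same animal, and the methods speak of a mouse in the singular. Each tissue has a single library, so no difference between the tissues was tested. Intervals given with shares are 95% Wilson intervals, those given with densities are exact Poisson intervals, and those given with density ratios are exact binomial intervals. All of them take the sites to be independent and hold for counting error alone. The files list positions without read numbers, and the depth at each position is therefore unknown. Beside the tissue, the names of both deposited files carry the same abbreviation, which may stand for the cerebellum, so the labels were checked against marker genes, and the hindbrain markers were covered only in part. Of 12 forebrain genes, 12 had a site of any kind in the cerebrum library and 5 in the cerebellum library. Of 10 hindbrain genes, 4 had a site in the cerebellum library and 2 in the cerebrum library, and Atoh1, Ptf1a and Skor2, which define cerebellar lineages, had none in either. Summed over each list, forebrain genes had 42 cerebellum and 328 cerebrum sites, and hindbrain genes 43 and 20. The cerebrum library lists 2.37 times as many sites of all kinds. Not every marker followed its label, since Cbln1 of the hindbrain list had 16 cerebellum and 19 cerebrum sites and Six3 of the forebrain list 8 and 9.

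The following 5 sequences were taken from GRCm38 by a rule, to show the leading 5-mers in their surroundings. The 5-mers with at least 20 members were ranked by how much more frequent they were among members than among eligible adenosines, meaning all adenosines of the same kind outside exons of the 230 genes. For each of the leading 6, the member found in both libraries in the gene with the most members was taken, with 20 nt on either side. CCATA, which ranked second, had no member in both libraries. Since the rule took members of both libraries, which are few, the 5 are not typical of all members: 3 of them (Dlgap1, Auts2 and the second Lsamp site) have an ATC that begins 6 nt downstream, against 4.55% of all members. Sequences are 5′ to 3′ on the gene strand, and capitals mark the 5-mer with the listed A at its centre.
Lsamp, chr16:40400176-40400216, plus strand: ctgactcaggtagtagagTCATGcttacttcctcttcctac
Dlgap1, chr17:70145256-70145296, plus strand: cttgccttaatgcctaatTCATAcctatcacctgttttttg
Auts2, chr5:132157850-132157890, minus strand: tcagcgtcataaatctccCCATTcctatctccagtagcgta
Lsamp, chr16:40346544-40346584, plus strand: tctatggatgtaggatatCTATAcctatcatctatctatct
Ctnnd2, chr15:30380404-30380444, plus strand: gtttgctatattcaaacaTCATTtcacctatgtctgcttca
None of these 5 sites lay near an exon. The distance to the nearest annotated exon was 90325 nt for the first Lsamp site and 36693 nt for the second, 60961 nt in Dlgap1, 43969 nt in Auts2 and 48278 nt in Ctnnd2.

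Members were more densely spaced in very long genes than sites of the same kind were in shorter genes. Density was counted per Mb of gene sequence outside exons, over coding genes with a site of any kind. In the cerebellum library, genes over 500 kb held 22.4 members per Mb (21.7 to 23.1), against 7.66 sites per Mb (7.38 to 7.95) in genes of 100 to 500 kb. In the cerebrum library, the values were 72.7 (71.5 to 74.0) and 35.1 (34.5 to 35.7). For the cerebellum library the ratio was therefore 2.92 (2.78 to 3.06). It was 2.08 for the cerebrum library (2.03 to 2.13) and 2.23 over both libraries (2.19 to 2.28). Density fell further in genes of 50 to 100 kb, 10 to 50 kb and under 10 kb in both libraries. Genes over 500 kb held 44.3% of the 39548 sites of this kind outside exons of coding genes of any length. In coding genes with a DRACH site in an exon, a set added after seeing the data, the ratio over both libraries was 2.11 (2.06 to 2.15).

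**Figure D1:**
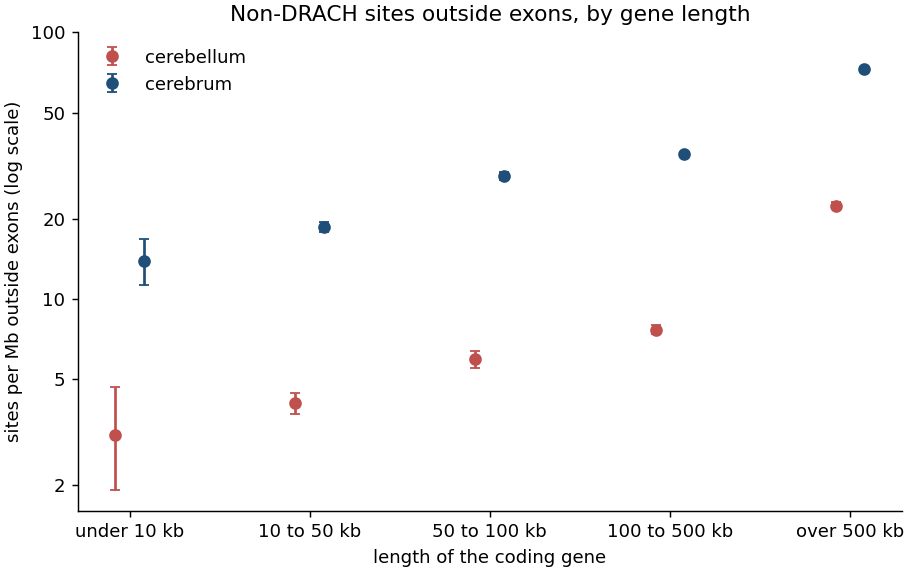
Sites outside exons that are neither DRACH nor followed by T and C, per Mb of coding gene sequence outside exons (log scale), by gene length and library; bars are 95% Poisson intervals. Density is highest in genes over 500 kb, at 22.4 per Mb in the cerebellum and 72.7 per Mb in the cerebrum.

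The sites followed the transcribed strand. On the other strand of the same genes, outside every gene interval of that strand, the cerebellum library listed 34 sites of the same kind and the cerebrum library 63 over 186 Mb, or 0.377 per Mb over both libraries. The sense strand held 90.9 members per Mb. Members were rare among the adenosines that could have been listed: 49453115 eligible adenosines correspond to 2823 for each member. Outside exons of the 230 genes, 354 per 1000000 adenosines of the members' kind and 681 per 1000000 of the DRACH kind were listed over both libraries. In genes of 100 to 500 kb these values were 155 and 309, and in genes of 10 to 50 kb they were 62.8 and 221. DRACH adenosines outside exons were thus listed more often per adenosine than the others in each of these length classes. The rise from genes of 100 to 500 kb to those over 500 kb was not particular to the members' kind.

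Over the 230 genes, the cerebrum library listed 3.25 times as many members as the cerebellum library, against 2.37 times as many sites of all kinds. In bulk tissue, fewer cells of a type and less RNA per cell cannot be told apart, and the depth of each library is unknown. Per-gene densities in the libraries ranked genes alike (Spearman's rho 0.864 across the 220 genes with a site), a description across genes, which are not independent and share a library. Member density also rose with the number of sites in the exons of the same gene (rho 0.620) and little with gene length (rho 0.156). The number of exonic sites depends on expression and depth as well, and their part in member density was not tested.

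Members were spread unevenly over genes. The 15 genes with the most members held 35.1% of all assignments of members to genes (17647, since 131 members lie in the intervals of 2 such genes). A gene with members held a median of 43, and 60 genes held 100 or more. Most of the leading genes encode proteins of the cell surface and the synapse. Ptprd, a receptor-type tyrosine phosphatase of synaptic adhesion, had the most, with 83 members in the cerebellum and 604 in the cerebrum. Its locus spans chr4:75941238-78211961 on the minus strand, and its density over both libraries was 0.305 per kb outside exons. Lsamp, an adhesion protein of the IgLON family, had 147 and 435 members. Rbfox1, a splicing regulator, had 93 and 408. The ratio of cerebrum to cerebellum members was 7.28 in Ptprd, 2.96 in Lsamp and 4.39 in Rbfox1, on either side of the 3.25 over all genes.

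Among the 15 genes, density was highest in Pcdh9, a protocadherin, with 0.537 members per kb from 143 cerebellum and 323 cerebrum members. Cadm2, an adhesion protein of the immunoglobulin superfamily, followed with 0.481 per kb from 124 and 337 members. Tenm2, a teneurin that binds latrophilins, had 113 and 341 members, and Nrg3, a ligand of the receptor ErbB4, had 125 and 293. Nrxn3, a presynaptic adhesion protein, had 70 and 359, and Nlgn1, a postsynaptic partner of neurexins, had 85 and 212. Adgrl3, a latrophilin, had 72 and 201, and Ctnna2, which links cadherins to actin, had 91 and 221. A further 3 of the 15 genes had, with Ptprd, the highest ratios of cerebrum to cerebellum members. Dlg2, a postsynaptic scaffold, had 33 cerebellum and 275 cerebrum members. Celf2, an RNA-binding protein, had 20 and 261. Auts2, a nuclear regulator of neuronal development, had 29 and 229.

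Outside these 15, the highest densities among genes with at least 10 members were those of Kcnd2, a voltage-gated potassium channel (0.369 per kb), Fgf14, an intracellular fibroblast growth factor homolog that acts on sodium channels (0.319), Fam155a (0.318), Adgrb3, an adhesion G protein-coupled receptor (0.313), and Robo2, a receptor for Slit ligands (0.274). All 5 had members in both libraries, with 29 (Robo2) to 74 (Fgf14) in the cerebellum and 106 (Robo2) to 167 (Adgrb3) in the cerebrum. Some of the longest genes had few members. The 5 longest genes with a member were Gm20388, Fgfr2, Ptprd, Dmd and Cntnap2. Gm20388 is an annotated interval of 4435 kb that spans many other genes, and it held 19 members and a density of 0.00451 per kb. Fgfr2, a fibroblast growth factor receptor whose annotated interval is 2961 kb, held 25 members (0.00875 per kb). Dmd, which encodes dystrophin, held 1 cerebellum and 20 cerebrum members (0.00941 per kb). Cntnap2, a neurexin-family protein of the axon, held 83 and 137 members at 0.101 per kb, below Ptprd at 0.305 although both genes exceed 2 Mb. Of the 29 genes without a member, 10 had no site of any kind, among them Ctnna3 and Immp2l.

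**Figure D2:**
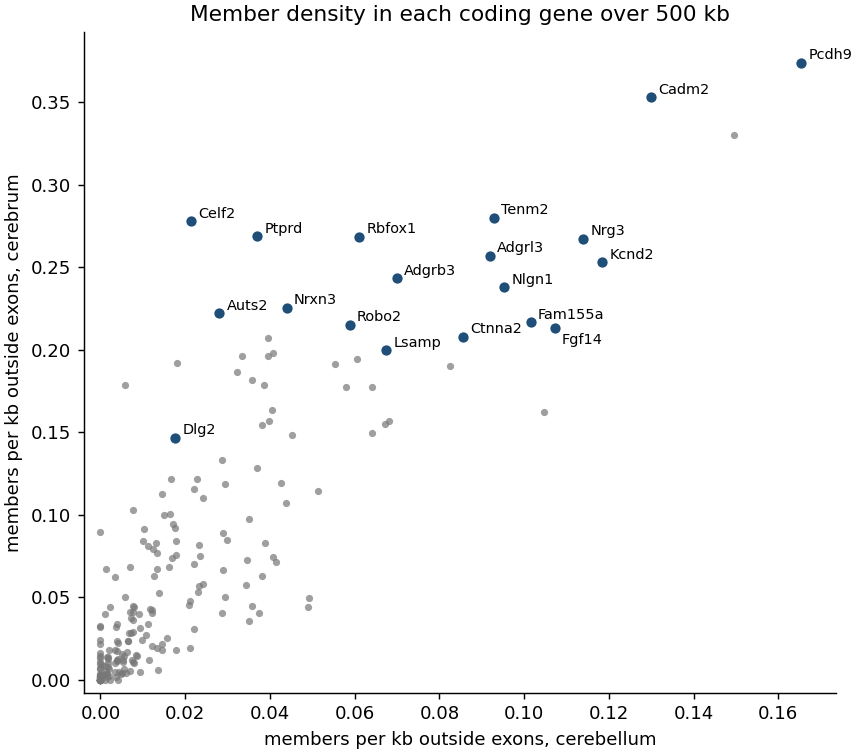
Members per kb of gene sequence outside exons in the cerebellum library (x axis) and the cerebrum library (y axis); each point is 1 of the 230 coding genes over 500 kb, and the named genes (blue) are among the 15 with the most members and the next 5 by density. Pcdh9 lies farthest out in both libraries. Celf2, Ptprd and Auts2 had 0.278, 0.269 and 0.222 members per kb in the cerebrum and 0.0213, 0.0369 and 0.0281 in the cerebellum.

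Some genes had over 10 members in 1 library and 0 in the other, and all 6 of them lacked members in the cerebellum. Over all 230 genes, 23.6% of the assignments were cerebellum members, so a count of 0 is reached more easily in that library. Whether these 6 absences go beyond the difference in library size was not tested. Clstn2, a calsyntenin of the postsynaptic membrane, had 52 cerebrum members. Sox6, a transcription factor, had 18, and Psd3, an exchange factor for the GTPase Arf6, had 16. Slit3, a guidance ligand, had 14, Cacna2d3, an auxiliary calcium channel subunit, had 13, and Smyd3, a lysine methyltransferase, had 12. Their exons carried fewer sites in the cerebellum as well: 2 against 11 in Clstn2, 6 against 21 in Sox6, 23 against 44 in Psd3, 0 against 5 in Slit3, 5 against 8 in Cacna2d3 and 0 against 5 in Smyd3. Summed over all 230 genes, the cerebellum library listed 4132 exonic sites and the cerebrum library 8034, a ratio of 1.94, so the exonic ratios of Psd3 (1.91) and Cacna2d3 (1.60) were not above that of the genes as a whole. At the other end, 2 of the 134 genes with 20 or more members had more in the cerebellum, and both were chosen for mention after their values were seen. Dscam, an adhesion protein of the immunoglobulin superfamily, had 28 cerebellum and 25 cerebrum members, and Zfp804b had 12 and 11. Across the 134 genes, the log ratio of cerebrum to cerebellum members followed that of exonic sites (Spearman's rho 0.467), as a description across genes.

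By function, adhesion genes held the most members. All lists below were written with earlier results of these data known, so counts are descriptions. Of the 230 genes, 46 were in the adhesion list, 45 of these carried members, and they held 7662 assignments, or 43.4% of all, with a median of 0.103 members per kb. The median over all 230 genes was 0.0410 per kb. The 20 genes for receptors and channels had a median of 0.0864 per kb, the 16 for scaffolds and the cytoskeleton 0.0983, the 11 for signalling 0.0546 and the 11 transcription regulators 0.0527. All 20 receptor and channel genes carried members, from 0.0142 per kb to 0.369. Only 3 RNA-binding protein genes of that list exceed 500 kb. Their median was the highest of the lists, at 0.299 per kb, and Rbfox1 and Celf2 supplied most of their 797 assignments. Pooled over its genes, density was 0.227 per kb in that list and 0.161 per kb in the adhesion list. The 123 genes in no list had a median of 0.0164 per kb, and 96 of them carried members. The cerebellum share of members was 30.3% in receptors and channels, 26.1% in adhesion genes and 25.4% in signalling genes. It was 16.3% in transcription regulators, 15.5% in scaffolds and 14.7% in RNA-binding proteins, against 23.6% over all genes.

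Along the gene, members were concentrated toward the 5′ end. Upstream of the gene midpoint lay 64.5% of the cerebellum members (63.0% to 65.9%) and 62.2% of the cerebrum members (61.4% to 63.1%), against 50.0% of the eligible adenosines of the same genes. When each gene was cut into 10 equal segments, listed members per 1000000 eligible adenosines fell from 142 in the segment at the gene start to 34.2 in that at the gene end in the cerebellum, a ratio of 4.15. In the cerebrum they fell from 438 to 148, a ratio of 2.96. Counted by distance from the start over both libraries, density was 134 per Mb in the first 100 kb of the gene and 73.8 per Mb from 400 to 500 kb. It did not fall steadily beyond, with 98.2 per Mb from 700 to 800 kb, where fewer genes reach. DRACH sites outside exons of these genes were placed alike, with shares upstream of the midpoint of 64.3% (61.1% to 67.4%) for the cerebellum and 63.0% (61.0% to 65.1%) for the cerebrum.

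A slope was also seen along long introns when they were pooled. The genes hold 1156 stretches of 50 kb or more between consecutive annotated exons, and these stretches contained 81.5% of the cerebellum and 79.7% of the cerebrum members. Within them, members per 1000000 eligible adenosines fell from 137 in the 5′-most of 10 equal segments to 42.3 in the 3′-most for the cerebellum library. For the cerebrum library they fell from 426 to 154. Upstream of the intron midpoint lay 65.1% of their cerebellum members (63.5% to 66.7%) and 64.1% of their cerebrum members (63.2% to 65.0%), against 49.9% of the eligible adenosines. The fall from 5′ to 3′ was thus present along whole genes and along their pooled long introns. Both counts rest largely on the same members, so they are not separate results.

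**Figure D3:**
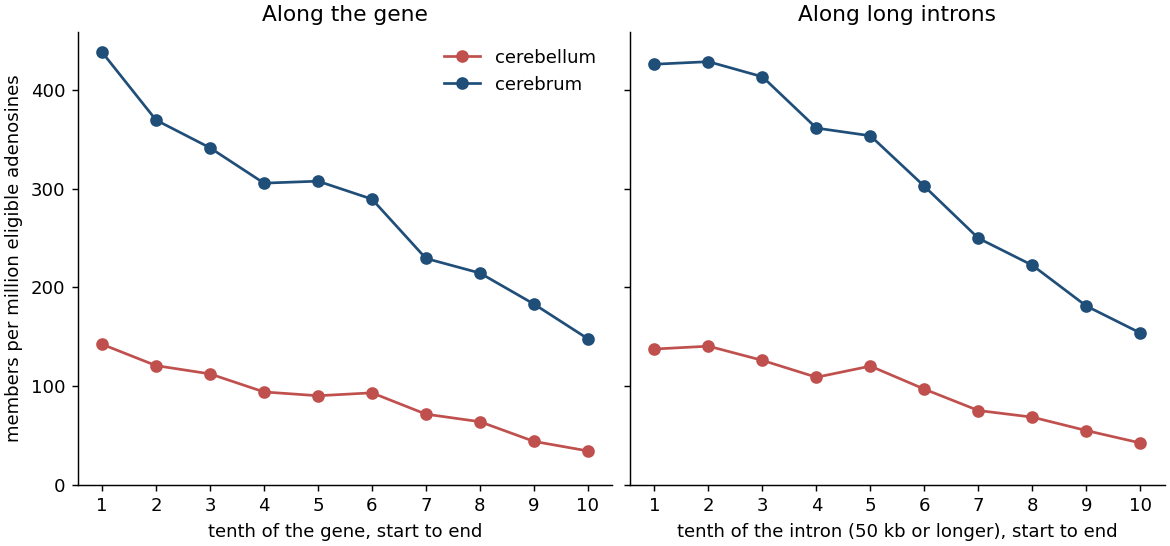
Members per 1000000 eligible adenosines in 10 equal segments of the gene (left) and of stretches of 50 kb or more without an annotated exon (right), for each library. In both panels and both libraries the density falls from 5′ to 3′, from 438 to 148 along the gene and from 426 to 154 along long introns in the cerebrum.

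Members did not crowd around annotated exons. The median distance to the nearest exon was 28970 nt for cerebellum members and 25168 nt for cerebrum members. Only 0.480% of members lay within 100 nt of an exon, and 57.7% lay over 20 kb away. Among adenosines nearest to an exon on their 5′ side, 545 per 1000000 were listed beyond 20 kb, against 203 per 1000000 within 50 nt. Among those nearest to an exon on their 3′ side, the values were 329 and 200. RefSeq exons, a second annotation, covered 4.54% of the members (4.25% to 4.86%) and 6.34% of the DRACH sites outside GENCODE exons (5.47% to 7.34%). Most members were therefore intronic in both annotations.

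Individual genes departed from the common slope. Of the 134 genes with 20 or more members, 109 had more of them upstream of the midpoint, and the shares ran from 4.76% in Dmd to 100% in Rora, a nuclear receptor needed for Purkinje cells (38 members). These examples were picked after their values were seen. In Cntnap2, 93.6% of the 220 members lay upstream of the midpoint, at a median position of 0.0978 of the gene length. The cyclic AMP phosphodiesterase gene Pde4d showed the opposite, with 7.27% of 55 members upstream of the midpoint. Of the 15 leading genes, Pcdh9 and Nrg3 were skewed to the 5′ side (69.4% and 69.6%), whereas Nlgn1 and Celf2 had 30.4% and 31.7% there. Genes with several promoters start some transcripts inside the annotated interval, and position was always counted from its outer start.

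Few members were found in both libraries. The 72 shared members were 1.74% of the cerebellum members (1.39% to 2.19%) and 0.535% of the cerebrum members (0.425% to 0.673%). The value depends on how sites are counted. With members that lay at most 100 nt apart counted as 1 run, 10.3% of the cerebellum and 3.22% of the cerebrum runs held sites of both libraries. Such a run need not hold a shared position, and how often dense listing alone would give it was not computed. With sites followed by T and C kept, 4.47% and 1.50% were shared. Every other class of site compared in the same genes was shared more. Of the cerebellum sites, 13.2% of those followed by T and C outside exons (11.5% to 15.2%), 32.1% of the DRACH sites outside exons (29.0% to 35.3%), 39.8% of the sites of the members' kind in exons (36.7% to 42.9%) and 81.2% of the DRACH sites in exons (79.7% to 82.7%) were also in the cerebrum library. Sharing of the members' kind outside exons was higher in shorter genes, with 4.07% of the cerebellum sites (3.40% to 4.88%) in genes of 100 to 500 kb and 8.41% (6.21% to 11.3%) in genes of 10 to 50 kb. It hardly differed between members that are 1 base away from DRACH (1.59%) and those farther from it (1.83%), and the intervals of these shares overlapped.

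**Figure D4:**
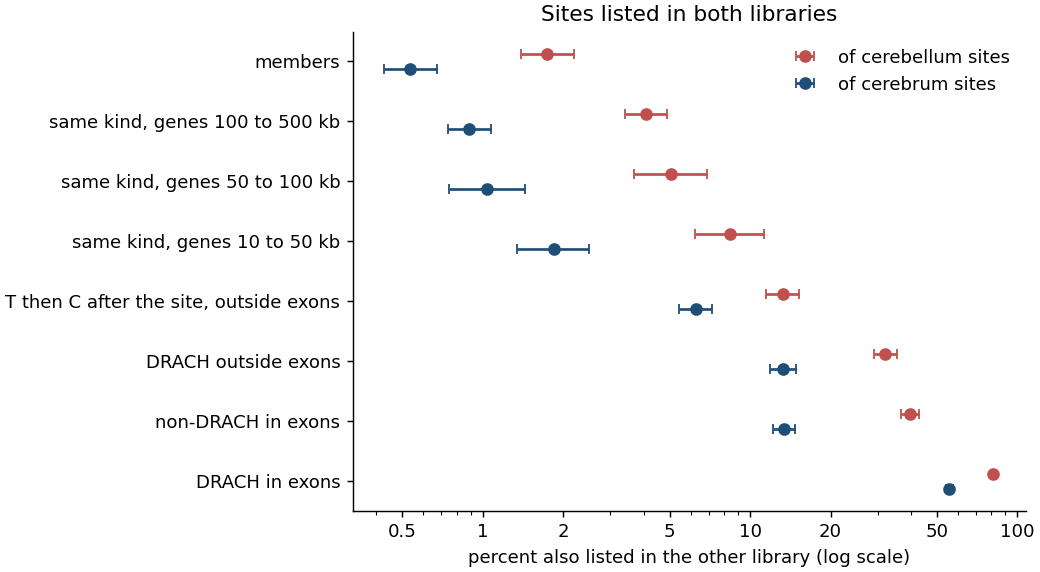
Percent of the sites of each library (cerebellum red, cerebrum blue) that the other library also lists (log scale), for members, the same kind of site outside exons of shorter genes, and other sites of the genes over 500 kb; bars are 95% Wilson intervals. Members lie lowest, at 1.74% and 0.535%, and DRACH sites in exons highest, at 81.2% and 55.7%.

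The overlap was small but not spread evenly over the adenosines nearby. Among eligible adenosines 1 to 10 kb from a cerebellum member, 0.0938% were listed in the cerebrum, so the share of 1.74% at the member itself was 18.6 times as high. From cerebrum members to the cerebellum library, the ratio was 18.4. Closer to a cerebellum member the cerebrum rate was 0.118% at 51 to 200 nt, 0.319% at 4 to 10 nt and 0.418% at 1 to 3 nt. Within the same library it rose more steeply: at 1 to 3 nt from a cerebellum member, 2.33% of the eligible adenosines were cerebellum members (1.99% to 2.72%). At 4 to 10 nt from a cerebellum member, 0.923% were cerebellum members, against the 0.319% listed in the cerebrum. Within 10 nt, neighbours of cerebellum members were thus more often from the same library. This did not hold farther away, with 0.190% in the cerebellum and 0.214% in the cerebrum at 11 to 50 nt. At 51 to 200 nt the values were 0.0459% and 0.118%.

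The 72 shared members lay in 49 genes, with 3 each in Ctnnd2, Il1rapl1, Lsamp, Magi2 and Nrg3. They stood apart from the members in a single library in their surroundings. Within 100 nt of a listed DRACH site lay 13.9% of them (7.72% to 23.7%), against 1.94% (1.74% to 2.15%) of the 17444 members of a single library. Within 100 nt of another member lay 30.6% (21.1% to 41.9%) against 16.7% (16.2% to 17.3%). Some of these shared members are neighbours of each other, as in Ctnnd2, Ptprt and Cntnap5a, so they are not independent and the interval is too narrow. RefSeq exons covered 5.56% (2.18% to 13.4%) against 4.54%, and repeat-masked sequence 16.7% (9.80% to 26.9%) against 21.7%, and these intervals overlapped. The most frequent 5-mers of the shared members were CTATT with 7 and GTACT with 5. GTACT differs from DRACH at 1 base and had 29 members in all, so it was rare among members, at 0.569 times its frequency among eligible adenosines.

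Many shared members had an ATC trinucleotide that began 6 nt downstream. The letters were noticed in the sequences of the shared members and then counted everywhere, and an excess of pairs of non-DRACH sites at 6 nt was already known from the wider series, so these counts are a description. The 5 shared members with the 5-mer CTATT and this downstream ATC are printed with 20 nt on either side, and capitals mark the 5-mer and the ATC.
Il1rapl1, chrX:87828300-87828340, minus strand: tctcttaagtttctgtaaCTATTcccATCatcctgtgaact
Kcnma1, chr14:23427984-23428024, minus strand: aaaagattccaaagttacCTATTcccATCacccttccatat
Macrod2, chr2:142017288-142017328, plus strand: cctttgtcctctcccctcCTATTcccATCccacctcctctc
Magi2, chr5:19913537-19913577, plus strand: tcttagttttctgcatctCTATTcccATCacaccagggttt
Nrg3, chr14:38920007-38920047, minus strand: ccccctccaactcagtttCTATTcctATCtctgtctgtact
ATC began 6 nt after 27.8% of the shared members (18.8% to 39.1%), 4.45% of the members of a single library (4.16% to 4.77%) and 1.40% of the eligible adenosines. The full pattern, with C 2 nt before the site and T right after it in addition to the ATC, held for 23.6% of the shared members (15.3% to 34.6%), 1.03% of the others (0.892% to 1.19%) and 0.0631% of the eligible adenosines. Among the 69 cerebellum members with this pattern, 24.6% were also in the cerebrum library (15.99% to 36.0%). On the cerebrum side, 11.7% of the 145 members with the pattern were shared (7.45% to 17.97%). With the ATC alone required, 8.93% of the 224 cerebellum members were shared (5.85% to 13.4%). Without an ATC at this distance, 1.33% of the cerebellum members were shared (1.02% to 1.74%).

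The spacing was not limited to shared members. The A of the downstream ATC belongs to the excluded class that is followed by T and C, and it was itself listed after 23.96% (21.1% to 27.0%) of the 797 members with such an ATC, and after 17 of the 20 shared ones. At 5 nt and 7 nt downstream, 1.53% and 1.89% of the adenosines of that class were listed. Adenosines of the members' own kind were listed most often at 3 nt downstream (3.71%, 3.15% to 4.37%) and again at 6 nt (2.15%, 1.78% to 2.61%), with lower values at 4 nt (1.01%) and 5 nt (0.652%). From 11 to 20 nt downstream the values were between 0.303% and 0.595%. The shares at 3 and 6 nt stood above those of the adjacent distances, with intervals that did not overlap. For the members' own kind, both sides of a member count the same pairs from either end, so they are not separate results. No adenosine followed by T and C lay 2 nt upstream of a member, so 3 nt upstream was compared with 4 nt only. At 9 nt the shares also stood above the adjacent ones for adenosines followed by T and C. For the members' own kind the intervals at 8, 9 and 10 nt overlapped.

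**Figure D5:**
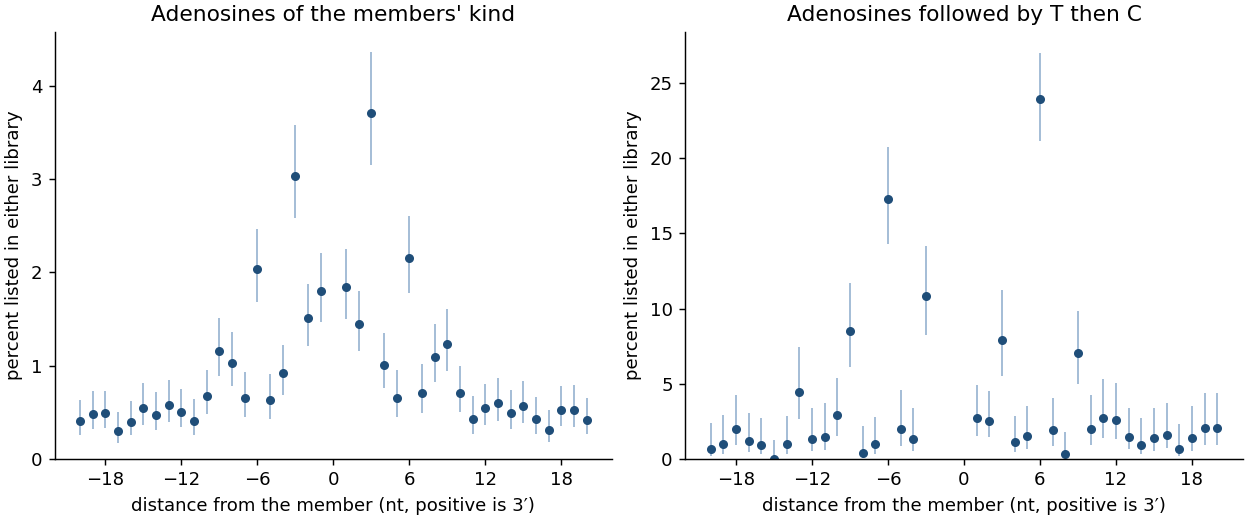
Percent of the adenosines at each distance from a member, outside exons, that either library lists, for adenosines of the members' kind (left) and for those followed by T and C (right); bars are 95% Wilson intervals. Values stand out at 3 and 6 nt in both panels and at 9 nt in the right panel, and the highest is 23.96% at 6 nt downstream in the right panel.

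Most 5-mers differed less than 2-fold in frequency between members and eligible adenosines. Of the 187 5-mers with at least 20 members, 158 were between 0.5 and 2 times as frequent as among eligible adenosines. Within this range some were well away from equal frequency, such as CAATT (1.975-fold, 1.69 to 2.31) and GAAAG (0.51-fold, 0.40 to 0.65). The 6 above 2-fold ran from TCATG (2.41-fold, 2.12 to 2.75) to TCATT (2.05-fold). They are the 5-mers of the sequences shown first together with CCATA, and none is 1 base away from DRACH. Against unlisted eligible adenosines within 50 nt of a member, TCATG was 2.29-fold and TCATT 1.34-fold as frequent, and of the 6 only TCATG stayed above 2-fold. All 6 share a T after the A, which 38.4% of members had (37.6% to 39.1%) against 25.7% of eligible adenosines. G after the A was depleted, at 15.8% of members against 27.4%, and among the 5-mers with at least 20 members the lowest was AGAGG (0.200-fold, and 0.515-fold against unlisted eligible adenosines within 50 nt). Single-base neighbours of DRACH made up 37.2% of members (36.5% to 37.9%) and 39.6% of eligible adenosines. The members thus showed no excess of near matches to the consensus.

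The surrounding sequence was rich in A and T. G and C made up 34.9% of the bases within 50 nt of members (SD 7.78, n = 17516), 38.7% around all eligible adenosines and 34.0% around unlisted eligible adenosines within 50 nt of a member. Repeat-masked sequence held 22.5% of the cerebellum members (21.2% to 23.8%) and 21.5% of the cerebrum members (20.8% to 22.1%), against 30.1% of eligible adenosines and 24.1% of those within 50 nt of a member. After every A in the genome was turned into G, as reads of fully deaminated RNA would be, the 51-nt window of 0.303% of members occurred elsewhere (0.231% to 0.396%), against 8.70% of a regular sample of eligible adenosines. The part that read mapping has in this difference, and in that of the repeat-masked shares, was not tested. Runs of 8 or more A within 300 nt downstream followed 5.29% of members (4.97% to 5.63%), 6.43% of eligible adenosines and 5.84% of the unlisted ones within 50 nt of a member. Runs of T followed 8.60% of members (8.19% to 9.02%), 6.91% of eligible adenosines and 8.47% of the unlisted ones nearby. In predicted folds with 50 nt on either side, the mean probability of being unpaired was 0.549 at members and 0.555 at unlisted adenosines within 20 nt (mean difference -0.00593, SE 0.00268, n = 17496).

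Members were close together as well as rare. Within 100 nt of another member of the union lay 16.8% of them (16.2% to 17.3%), and the median distance to the nearest was 977 nt. The shares within 100 nt were similar for DRACH sites outside exons of the same genes (15.8%, 14.5% to 17.3%) and for the members' kind in genes of 100 to 500 kb (15.1%, 14.6% to 15.7%). Within 10 nt, the share in the cerebrum library was 6.10% of the members (5.70% to 6.51%). It was 6.43% of their kind in genes of 100 to 500 kb (6.01% to 6.87%). Of those DRACH sites it was 1.77% (1.28% to 2.44%). DRACH adenosines outside exons of genes over 500 kb number 3823496, against 49453115 eligible adenosines, and the shares are not scaled to these numbers. The 3 places with the most members within 1 kb each held 7 of them, in Grik2, which encodes a kainate receptor subunit, in Cadm2 and in Dlg2. The 3 members lying closest together in each are shown in capitals.
Grik2, chr10:49515587-49515653, minus strand: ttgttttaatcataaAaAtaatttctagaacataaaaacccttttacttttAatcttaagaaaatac
Cadm2, chr16:67529305-67529345, minus strand: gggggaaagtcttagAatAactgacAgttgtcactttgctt
Dlg2, chr7:91163208-91163256, plus strand: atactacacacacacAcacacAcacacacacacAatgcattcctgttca
None of the 21 members of these places was found in both libraries. The stretch printed from Dlg2 is largely a CA repeat, and 6 of the 7 members of that place were repeat-masked. In Grik2 and Cadm2 it was 2 of 7, and no DRACH site was listed in the Cadm2 and Dlg2 places. The nearest exons lay 7216 nt away in Grik2, 63375 nt in Cadm2 and 1316 nt in Dlg2.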

How the data were processed

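GLORI libraries from 1 cerebellum and 1 cerebrum sample were used. According to the paper's methods, the authors mapped reads with GLORI-tools to mm10 and to mm10 carrying PWK bases, united both site sets of a library, and kept sites above a minimum methylation rate and read count. The unit of the deposited files is a genomic position on a strand, and they list no rate and no depth, so a position that is not listed can be unmethylated, unexpressed or thinly covered. The authors' coordinates (mm10, per the labels) were read on GRCm38 with GENCODE M21 genes and exons, a release other than the one the authors used, and RefSeq exons were used as a second annotation.

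A gene interval ran from the outermost start to the outermost end of its transcripts. Eligible adenosines were those of the same kind outside exons of the 230 coding genes over 500 kb. The tissue of each library was taken from its label, since the names of both deposited files carry, beside the tissue, the same abbreviation. Members and gene lists were chosen with earlier results of these data known. Genes were named by rank: the 15 with the most members, the next 5 by density among genes with at least 10 members, the 5 longest with a member, and those with over 10 members in 1 library and 0 in the other. Exceptions are marked, and some genes that the rule names are not reported here. No test was made, since each tissue has 1 library. Site assignment, position and sharing were tested on simulated sites. Alternatives changed 1 choice at a time, and coding genes with an exonic DRACH site were added after seeing the data. Folding used ViennaRNA, and computations used Python with numpy, pandas, scipy and numba.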

Additional observations from a re-analysis of the deposited data

How the results depend on the processing

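Over 48 alternative values of 6 results, 34 stayed within the 95% interval of the reported value and 14 did not. The density ratio of 2.23 was 2.57 for genes over 1 Mb, 2.36 without repeat-masked sites, 2.17 without Ptprd (the gene with the most members) and 2.11 in coding genes with an exonic DRACH site, and was above 2 in every alternative run. The share upstream of the gene midpoint, 62.7% over both libraries, was 61.7% in genes over 1 Mb. When sites followed by T and C were kept, 4.47% of the cerebellum and 1.50% of the cerebrum sites were shared. When members with gaps of at most 100 nt were counted as 1 run, a run being shared if both libraries listed any site in it, 10.3% and 3.22% were. Such a run need not hold a shared position, and no baseline for dense listing was computed. The share within 100 nt of another member, 16.8%, was 24.1% with sites followed by T and C kept, 10.7% without 5-mers 1 base away from DRACH, 14.5% without repeat-masked sites and 0% with 1 site per run, the last by construction. The other values were recounted among the sites kept, so adding or leaving out sites moves them by number alone. The repeat-masked share of 21.7% was 19.4% without 5-mers 1 base away from DRACH. No paired analysis was possible because each tissue has a single library. Neither depth nor methylation rate is in the files, so how many members a deeper library would share was not computed, and intervals cover counting error over sites only.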
